A study of Mus musculus with 12 samples.

Results

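The 8 genes described here belong to the basic helix-loop-helix (bHLH) family of transcription factors, act in neuron formation or as dimer partners there, and were followed by name in RNA-Seq of mouse neural progenitor cells (mNPCs): the proneural and neuronal factors Neurog1, Neurog2, Neurod2, Neurod6 and Bhlhe22, and the E proteins Tcf3, Tcf4 and Tcf12. They are 8 of 18911 genes in the table, chosen by their function and found by matching Ensembl identifiers to GRCm38 symbols. The mNPCs were cultured from the hippocampus of newborn (P0) mouse pups in medium with FGF-2 and EGF, and 3 libraries of poly(A) RNA were made from each of 4 genotypes, 12 libraries in all. Kmt2a+/+ cells have unmodified alleles. Kmt2a+/LSL cells carry, on 1 allele of Kmt2a, a stop cassette flanked by loxP sites (LSL), placed in intron 1, whose early poly(A) signal truncates the transcript. Nes-Cre+/- carries nestin-Cre and 2 unmodified Kmt2a alleles, and Nes-Cre+/-Kmt2a+/LSL carries both nestin-Cre, which removes the cassette in neural cells, and the LSL allele, so that Kmt2a was restored before birth. The last 2 genotypes are called Cre controls and restored cells below, and Kmt2a+/+ the wild type. Nestin-Cre acts in nestin-expressing neural cells from the embryo onward, and the sources used here do not say whether each library came from its own pup, so p-values measure the spread between these libraries.

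Proneural bHLH factors bind DNA as dimers with a widely expressed E protein, on a short motif called the E-box, and switch on genes that take a progenitor out of the cell cycle and toward a neuron. In the developing hippocampus and cortex, Neurog1 and Neurog2 act first, in progenitors of glutamatergic neurons, Neurod2 and Neurod6 follow in young neurons, and Bhlhe22, also called Bhlhb5, is a repressor that acts in the identity and wiring of postmitotic neurons. Id proteins hold E proteins in dimers that cannot bind DNA, and Hes and Hey factors repress proneural genes downstream of Notch. Kmt2a encodes a histone H3 lysine 4 methyltransferase with a CXXC domain, which binds unmethylated CG dinucleotides.

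The promoters of the paralogs Neurog2 and Neurog1 are shown because they are alike in family and unlike in level in these cells, and because CG dinucleotides are what the CXXC domain of Kmt2a reads. Promoters of 6 of the 8 genes were matched in RefSeq (GRCm38.p6). Both runs hold the 250 bases before the RefSeq start, 5′ to 3′ on the gene's strand, with CG dinucleotides in capitals. Neurog2 lies at chr3:127632886-127633135 on the plus strand and Neurog1 at chr13:56252181-56252430 on the minus strand.
Neurog2: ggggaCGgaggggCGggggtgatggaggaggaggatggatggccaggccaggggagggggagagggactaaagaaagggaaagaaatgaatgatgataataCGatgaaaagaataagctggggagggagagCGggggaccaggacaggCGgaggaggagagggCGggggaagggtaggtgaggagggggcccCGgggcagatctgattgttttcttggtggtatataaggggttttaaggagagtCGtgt
Neurog1: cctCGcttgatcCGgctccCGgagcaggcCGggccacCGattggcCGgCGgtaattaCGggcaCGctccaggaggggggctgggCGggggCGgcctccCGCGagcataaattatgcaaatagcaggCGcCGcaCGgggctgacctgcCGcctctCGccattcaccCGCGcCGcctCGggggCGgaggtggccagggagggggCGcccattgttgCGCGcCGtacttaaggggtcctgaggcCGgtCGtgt
The Neurog2 run holds 8 CG dinucleotides and the Neurog1 run 29. Over windows of 300 bases (250 before and 50 after the start), Neurog2 held 10 and Neurog1 32, which placed them at percentiles 56.5 and 90.5 among 32851 mouse promoters, whose median was 7. The Neurog2 window held no E-box (CANNTG, a motif that reads the same on both strands), against 72.31% of all promoters with at least 1, and Neurog1 held 1, which is not contained in the run printed above. Neither held CAGATG, an E-box variant counted within CANNTG and searched on both strands, which 17.15% of promoters held. These counts describe the windows only. In the GRCm38 annotation, Neurog2 spans chr3:127633135-127635631 and Bhlhe22 chr3:18054174-18057517, both on the plus strand with 1 transcript each, while Tcf3 spans chr10:80409514-80433647 and Tcf12 chr9:71842688-72111871, both on the minus strand with 14 and 21 transcripts.

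Library totals lay between 18280008 and 28596919 estimated counts, so that 3 counts, taken as the floor, correspond to 0.103 to 0.178 CPM (counts scaled by TMM library size). Such floors cover counting error only. Kmt2a itself was lower in the Kmt2a+/LSL libraries than in all others, which overlapped among themselves: it lay between 166 and 167 CPM in Kmt2a+/LSL, between 281 and 300.3 in the wild type, between 283 and 310.0 in the Cre controls and between 259 and 284 in the restored cells. Its log2 fold change in Kmt2a+/LSL was -0.80 (SE 0.13), with an adjusted p of 0.281 by edgeR and of 6.09e-18 by DESeq2. The LSL allele can still give reads from the exon before the cassette, which count toward these values. Wild-type replicate 1 stood apart from the other libraries. It had the lowest total, its median correlation with the other wild-type libraries was 0.75 against 0.93 to 0.98 within the other genotypes, and its levels moved with the GC content of the transcript, by a median of +0.76 on the log2 scale in the quintile of genes lowest in GC and by -1.52 in the highest. Wild-type replicates 2 and 3 leaned the other way, by -0.19 and -0.46 in the lowest quintile and by +0.25 and +0.47 in the highest. Members at both ends of the GC range carry the pattern of replicate 1, so their results are given with and without it. Fits without replicate 1 compare against a wild type that leans toward high GC. The part of this in their fold changes was not tested.

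Progenitor markers were high (the 10 markers, among them Fabp7, Slc1a3 and Nes, summed to 7125 to 15487 CPM per library), while markers of microglia (6 genes, 0.122 to 2.08), endothelium (3 of 4 genes in the table, 0.548 to 3.15) and fibroblasts and mural cells (5 genes, 0.535 to 2.47) were close to 0. Neuron markers summed to 1048 to 1967 CPM, mostly Map2. Among the markers of young neurons, Dcx lay between 6.28 and 19.7 CPM, Tubb3 between 3.03 and 28.2, Elavl3 between 3.21 and 18.5 and Elavl4 between 12.2 and 33.4, while Stmn2 lay between 0 and 0.300. Of the 8 bHLH genes, the E proteins were abundant in these cells, Neurog2 and Bhlhe22 were low, and Neurog1, Neurod2 and Neurod6 were at or near the floor. In bulk libraries, fewer cells of a type and less RNA per cell cannot be told apart.

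Neurog1, Neurod2 and Neurod6 were almost silent. Neurog1 had 3 counts over all 12 libraries, 1 each in wild-type replicate 2, Cre control replicate 3 and restored replicate 2. Neurod2 had 6 counts, spread over 5 libraries, and none in the wild type. Both were under the filter on low counts and were not tested. Neurod6 passed the filter with 24 counts in all. Its counts were 4, 1 and 3 in the wild type, 0, 0 and 4 in Kmt2a+/LSL, 2, 2 and 5 in the Cre controls and 0, 0 and 3 in the restored cells. Every genotype holds a library at or under the floor for these 3 genes, so differences between genotypes were not detectable at this depth and no fold change is given.

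Neurog2, which starts neuronal differentiation in dorsal progenitors, was the only neurogenin above the floor. It measured 0.535, 17.7 and 2.78 CPM in the 3 wild-type libraries, 3.19, 9.22 and 6.64 in Kmt2a+/LSL, 3.70, 6.33 and 11.1 in the Cre controls and 2.29, 10.9 and 4.88 in the restored cells. Both the lowest and the highest value belonged to the wild type, and every genotype spanned at least a 2.89-fold range, so that the genotypes overlapped throughout. The means were 7.00 ± 9.32 (SD, n = 3) CPM in the wild type, 6.35 ± 3.03 in Kmt2a+/LSL, 7.04 ± 3.74 in the Cre controls and 6.02 ± 4.42 in the restored cells. The log2 fold change in Kmt2a+/LSL against the wild type was -0.15 (SE 0.95, edgeR adjusted p = 1), while the difference of mean log2 CPM had the opposite sign (+0.90, two-sided exact permutation p = 0.6). Without wild-type replicate 2, the fold change was 1.90, and without replicate 1 it was -0.68. A GC content of 55.95% puts Neurog2 in the quintile of genes in which replicate 1 was lowest, and an offset for GC content raised that library from 0.535 to 1.26 CPM without taking it out of last place.

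Bhlhe22 was lower in Kmt2a+/LSL than in the other genotypes, although it did not pass the test across all genes. It measured 2.77, 3.29 and 4.35 CPM in Kmt2a+/LSL, against 5.12, 7.59 and 4.29 in the wild type, 5.93, 6.54 and 6.91 in the Cre controls and 5.68, 7.45 and 4.79 in the restored cells. The 3 Kmt2a+/LSL libraries were among the 4 lowest of the 12, and only wild-type replicate 3, at 4.29, lay among them. The mean was 3.47 ± 0.805 (SD, n = 3) CPM in Kmt2a+/LSL, 5.67 ± 1.72 in the wild type, 6.46 ± 0.493 in the Cre controls and 5.97 ± 1.36 in the restored cells. These values rest on 74 to 199 counts per library.

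In Kmt2a+/LSL against the wild type, the log2 fold change of Bhlhe22 was -0.71 (SE 0.29, edgeR unadjusted p = 0.0335, adjusted p = 1), and the 3 libraries of each genotype overlapped (two-sided exact permutation p = 0.2). In the restored cells against Kmt2a+/LSL it was 0.78 (SE 0.29, edgeR unadjusted p = 0.0210, adjusted p = 1), and all 3 restored libraries lay above all 3 Kmt2a+/LSL libraries (exact permutation p = 0.1, the smallest that 3 against 3 libraries allow). Over all genes tested, 3.54% had libraries that were higher without overlap in that comparison. Against the mean of the other 3 genotypes, the log2 difference of Bhlhe22 in Kmt2a+/LSL was -0.80 (SE 0.25, edgeR unadjusted p = 0.00824, adjusted p = 1.00), with a two-sided exact permutation p of 0.0091 for 3 against 9 libraries. Of all genes, 0.679% were lower at an unadjusted p under 0.05 in that comparison. The adjusted p lay between 0.691 and 1 over the alternatives of this comparison, DESeq2 and limma-voom included. These comparisons share the Kmt2a+/LSL libraries, and Bhlhe22 is also on a list of genes that the study chose from these same libraries, so the opposite signs are not independent evidence.

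Nestin-Cre alone left Bhlhe22 at 0.19 against the wild type (log2 fold change, SE 0.29, edgeR unadjusted p = 0.526), and the restored cells were at -0.11 (SE 0.29) against the Cre controls. An interaction term, which asks whether the LSL allele acted differently once nestin-Cre was present, gave 0.59 (SE 0.41, edgeR unadjusted p = 0.175, adjusted p = 1.00), and 0.32 without wild-type replicate 2. Bhlhe22 has a GC content of 51.67%, in the quintile from 51.38% to 55.44%, where wild-type replicate 1 deviated by a median of -0.69. The GC offset raised Bhlhe22 in that library from 5.12 to 7.20 CPM. The log2 fold changes kept their sign. Without wild-type replicate 1 they were -0.77 against the wild type and 0.78 in the restored cells, and with the GC offset -0.85 and 0.83. The library that decided most without the offset was wild-type replicate 2, then the highest of the 12. With it left out, the fold change in Kmt2a+/LSL was -0.44 (edgeR unadjusted p = 0.169).

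**Figure D1:**
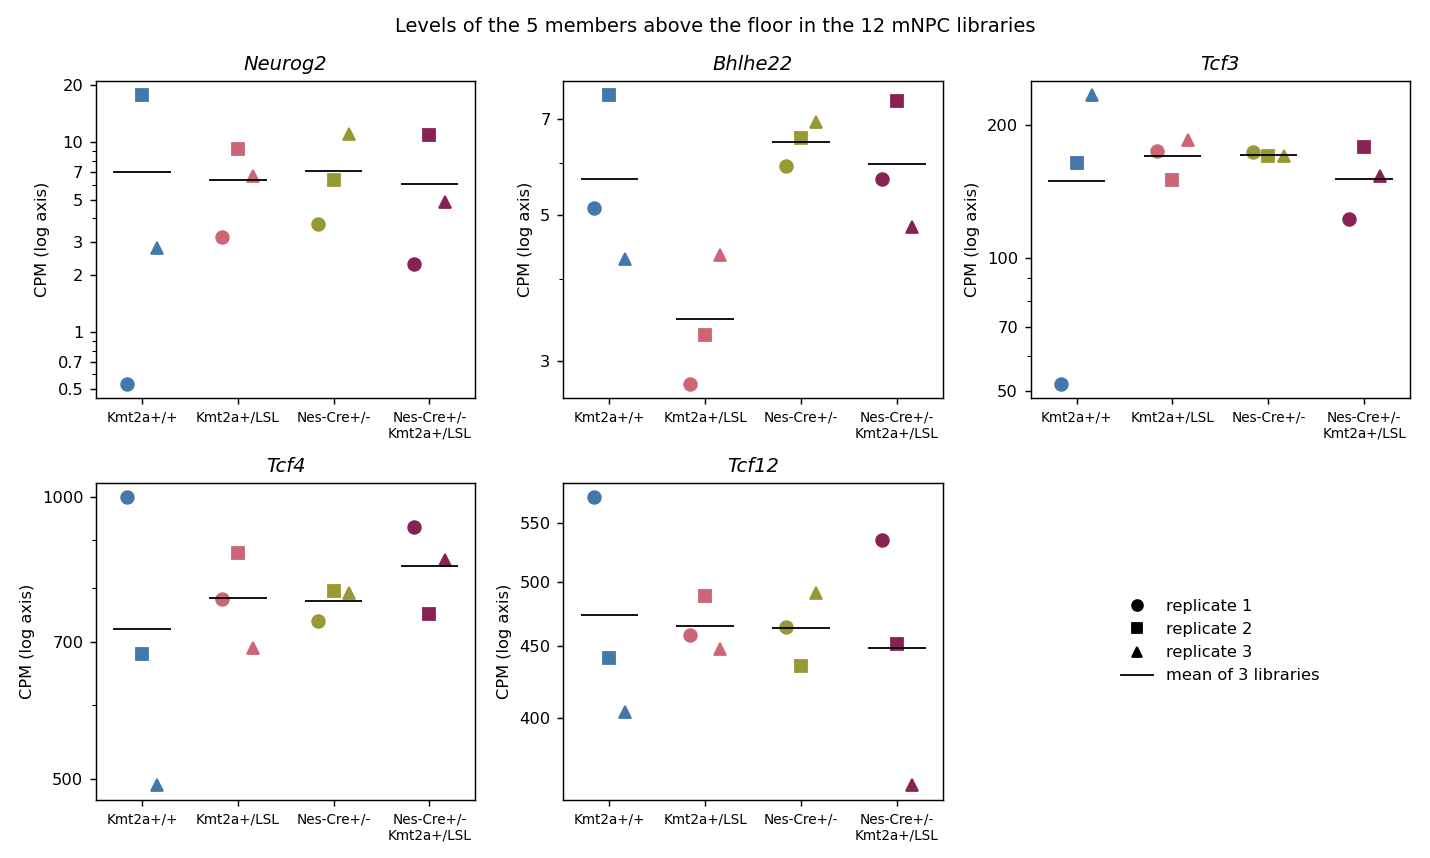
CPM (log axis) of Neurog2, Bhlhe22, Tcf3, Tcf4 and Tcf12 in each library, with the 4 genotypes on the horizontal axis, a symbol for each replicate and a line at the mean of 3 libraries. The Kmt2a+/LSL libraries of Bhlhe22 lie between 2.77 and 4.35 CPM, while wild-type replicate 1 (circle) is lowest in Neurog2 and Tcf3 and highest in Tcf4 and Tcf12.

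The E proteins were present at levels far above those of the proneural factors in every library. Tcf3, which encodes E12 and E47, measured 52.0, 164 and 233 CPM in the wild type, 175, 150.3 and 185 in Kmt2a+/LSL, 174, 169.8 and 170.1 in the Cre controls and 122, 178 and 153 in the restored cells. The wild type held both extremes, with a 4.48-fold range, whereas the Cre controls spanned a 1.03-fold range. The log2 fold change in Kmt2a+/LSL was 0.18 (SE 0.39, edgeR adjusted p = 1) and turned to -0.23 (SE 0.18) without wild-type replicate 1 and to -0.15 with the GC offset, so no direction is given for Tcf3. It has the highest GC content of the 8 genes, 60.98%.

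Tcf4, the E protein whose human ortholog is mutated in Pitt-Hopkins syndrome, measured 999, 679.5 and 493 CPM in the wild type, 778, 872 and 690.2 in Kmt2a+/LSL, 737, 794 and 789.96 in the Cre controls and 928, 749.7 and 857 in the restored cells. Here the order within the wild type was the reverse of that of Tcf3, with replicate 1 the highest of all 12 and replicate 3 the lowest. The log2 fold change in Kmt2a+/LSL was 0.11 (SE 0.23, edgeR adjusted p = 1). Without wild-type replicate 1 it was 0.41 (SE 0.16, edgeR unadjusted p = 0.0270, adjusted p = 0.551), a fit in which 8.95% of all genes had an unadjusted p under 0.05, and without replicate 3 it was -0.11. The GC offset, applied to all 12 libraries, gave 0.17 (SE 0.12). Tcf4 has the lowest GC content of the 8 genes, 40.88%.

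Tcf12, which encodes HEB, varied least of the 5 genes above the floor. It measured 574, 441 and 404 CPM in the wild type, 458, 488 and 448 in Kmt2a+/LSL, 464, 436 and 490.7 in the Cre controls and 535, 452 and 359 in the restored cells. The means lay between 448 and 473 CPM, closer together than the replicates of the wild type (SD 89.1) or of the restored cells (SD 88.2). The log2 fold changes in the 4 comparisons of single genotypes lay between -0.05 and -0.03 (SE 0.18), and those against the wild type turned positive without its replicate 1 (0.14 in Kmt2a+/LSL and 0.13 in the Cre controls).

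Per kilobase of exon (the union of all annotated exons), the mean over the 12 libraries was 39.7 CPM per kb for Tcf3, 29.8 for Tcf12, 28.5 for Tcf4, 2.96 for Neurog2 and 1.61 for Bhlhe22, and 0.0409, 0.0064 and 0.0058 for Neurod6, Neurod2 and Neurog1. The ranges of the 3 E proteins over the libraries overlapped (12.9 to 57.7, 23.1 to 36.9 and 17.99 to 36.5), as did those of Neurog2 and Bhlhe22 (0.240 to 7.94 and 0.829 to 2.27). Within single libraries, Tcf3 lay above Tcf4 and Tcf12 in all but wild-type replicate 1 and restored replicate 1. The gap between the E proteins and the proneural factors was larger than the spread: the lowest E protein value of any library, 12.9, lay above the highest Neurog2 value, 7.94.

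The order among the E proteins depends on the length used. By exon union, Tcf3 made up 38.3% ± 21.3 (SD, n = 3) of the summed level of the 3 in the wild type, 41.9% ± 4.45 in Kmt2a+/LSL, 42.2% ± 1.06 in the Cre controls and 38.5% ± 6.93 in the restored cells, and it was the largest share in every genotype. By the longest transcript, Tcf4 came first, with 39.7% to 44.6%, and Tcf3 last, with 23.4% to 26.2%. Tcf4 has 62 annotated transcripts and an exon union of 27382 bases against 8577 for its longest transcript, while Tcf3 has 14 transcripts and 4039 against 2950 bases. Under either length the genotype means of each share differed by less than the SD within the wild type, which includes replicate 1. The SD was smaller in other genotypes: by exon union, the Tcf4 share was 28.1% ± 1.17 in the Cre controls and 31.8% ± 4.00 in the restored cells. In wild-type replicate 1, the Tcf3 share by exon union was 14.9%, against 30.7% to 56.7% in the other 11 libraries.

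**Figure D2:**
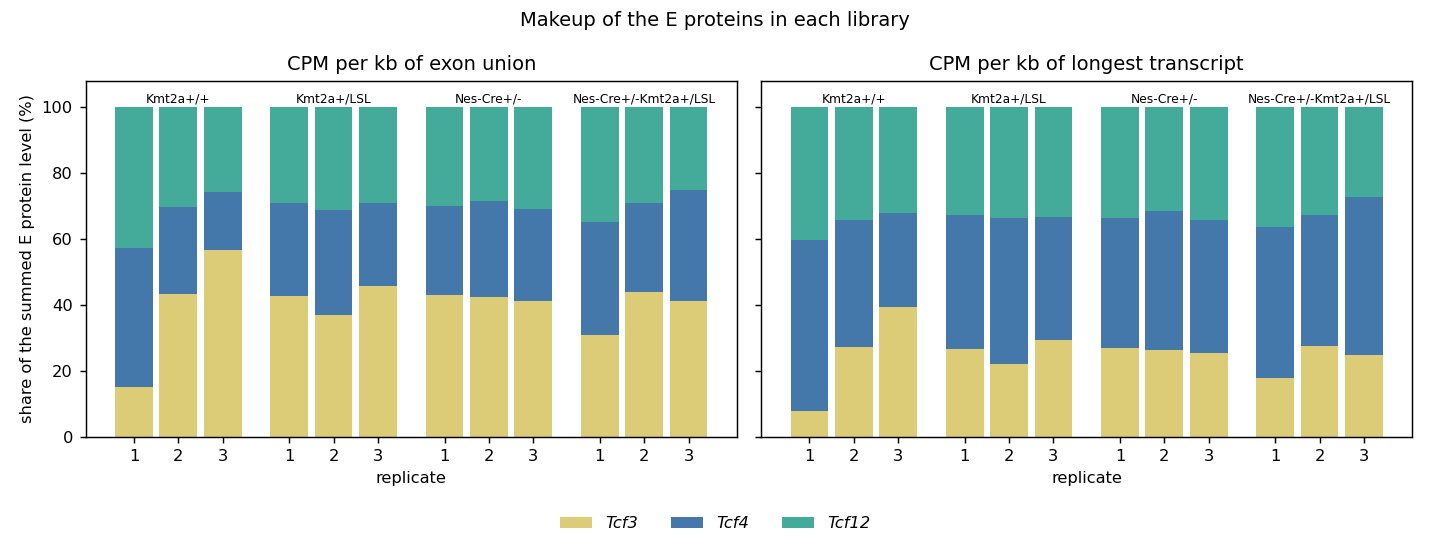
Share (%) of Tcf3, Tcf4 and Tcf12 in their summed CPM per kb, as stacked bars for each library by genotype and replicate, per kb of exon union (left) and of the longest transcript (right). Tcf3 takes the largest share on average on the left (38.3% to 42.2%) and the smallest on the right (23.4% to 26.2%), and wild-type replicate 1 has the lowest Tcf3 share in both.

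Across the comparisons, no member was called differentially expressed. Of the 6 members tested, 0 passed an adjusted p of 0.05 in any of the 6 comparisons by edgeR, and likewise by DESeq2 and limma-voom. The background was as low. edgeR called 0% of 17076 genes in 5 of the comparisons and 0.00586% in Kmt2a+/LSL against the mean of the other 3 genotypes. DESeq2 called 0.0411% in Kmt2a+/LSL against the wild type and also in the restored cells against Kmt2a+/LSL, 0.0176% in both comparisons with or within nestin-Cre (Cre controls against wild type, restored cells against Cre controls), 0.0235% against the mean of the other 3 and 0.0587% in the interaction, and limma-voom called 0.0117%, 0.0117%, 0%, 0%, 0.0234% and 0% in the same order. At an unadjusted p under 0.05, edgeR singled out 1 member, Bhlhe22, in Kmt2a+/LSL against the wild type (1.79% of all genes), in the restored cells against Kmt2a+/LSL (1.61%) and in Kmt2a+/LSL against the mean of the other 3 genotypes (1.2%). It singled out 0 members in the Cre controls against the wild type (1.4% of all genes), in the restored cells against the Cre controls (1.11%) and in the interaction (1.73%). In the interaction, limma-voom gave Bhlhe22 an unadjusted p of 0.0475 (adjusted p = 0.877), and in the Cre controls against the wild type it gave Tcf4 one of 0.0345 (adjusted p = 0.763).

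The sizes of the changes were small beside their errors for every member but Bhlhe22. In the restored cells against Kmt2a+/LSL, the log2 fold changes were -0.07 (SE 0.95) for Neurog2, -0.17 (SE 0.39) for Tcf3, 0.12 (SE 0.23) for Tcf4 and -0.05 (SE 0.18) for Tcf12. In the Cre controls against the wild type they were 0.00 (SE 0.95), 0.19 (SE 0.39), 0.10 (SE 0.23) and -0.03 (SE 0.18). In the restored cells against the Cre controls they were -0.22 (SE 0.95), -0.18 (SE 0.39), 0.13 (SE 0.23) and -0.05 (SE 0.18). All these genes had an adjusted p of 1 by edgeR and overlapping libraries in each of the 3 comparisons, in which 7.1%, 4.35% and 6.68% of all genes had libraries that did not overlap (4.05% in Kmt2a+/LSL against the wild type). With these errors, a change of the size seen in Bhlhe22 would lie within 1 SE of 0 for Neurog2.

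**Figure D3:**
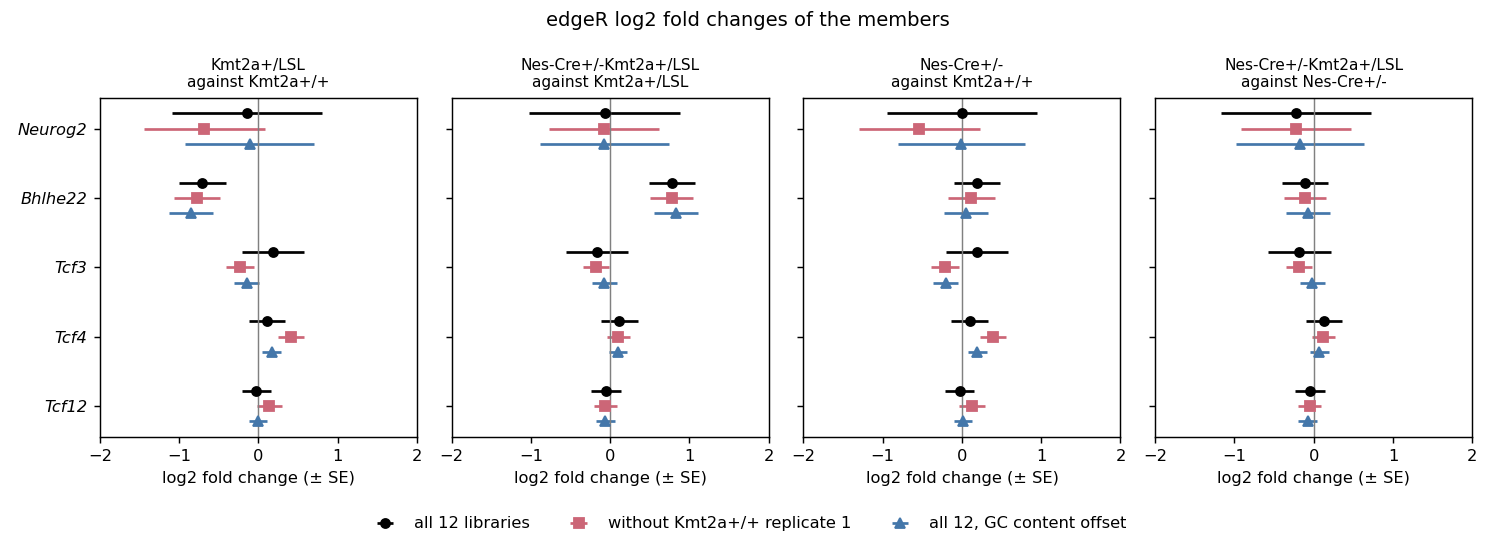
edgeR log2 fold changes (horizontal axis, ± SE) of the 5 members above the floor in 4 comparisons, from all 12 libraries (circles), without wild-type replicate 1 (squares) and with an offset for GC content (triangles). Bhlhe22 lies at -0.71 in Kmt2a+/LSL and at 0.78 in the restored cells under the first setting and on the same side under the others, while Tcf3 changes sign against the wild type.

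Tcf3 ran against the other E proteins over the libraries, while Tcf4 and Tcf12 ran together. The correlation of log2 CPM was -0.74 between Tcf3 and Tcf4 over the 12 libraries and -0.90 without wild-type replicate 1, -0.68 and -0.46 between Tcf3 and Tcf12, and 0.54 and 0.39 between Tcf4 and Tcf12, with points that share libraries and the dependence on GC content. After the GC offset, Tcf4 lay between 608 and 917 CPM, against 493 to 999 before it, and Tcf12 between 374 and 501 against 359 to 574. Tcf3 lay between 133 and 162 in 11 libraries, but wild-type replicate 1 went from the lowest, 52.0, to the highest, 223, so the offset did not settle that library's value. The part of GC content in the differences between genotypes was not tested beyond these values.

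**Figure D4:**
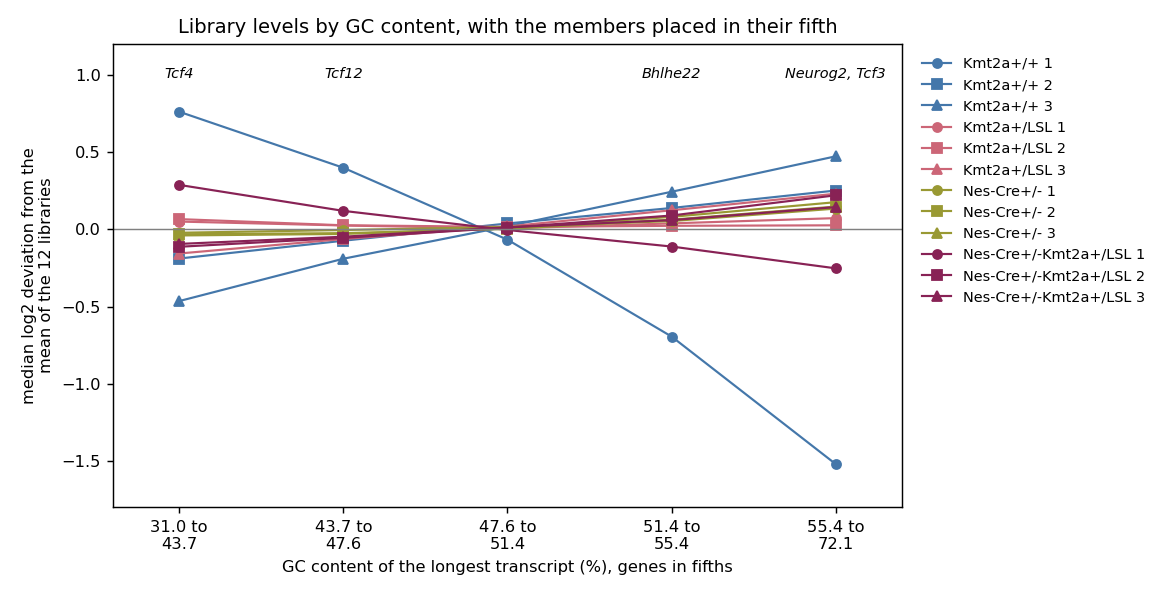
Median log2 deviation of genes from the mean of the 12 libraries (vertical axis) in quintiles of GC content of the longest transcript (horizontal axis, %), with 1 line per library, and the 5 members written above their quintile. Wild-type replicate 1 runs from 0.76 in the lowest quintile, where Tcf4 lies, to -1.52 in the highest, where Neurog2 and Tcf3 lie.

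The genes whose levels followed each member most closely, by Pearson's r of log2 CPM over the 12 libraries among 11677 genes, are given as a description. For Neurog2 they were 2310022B05Rik (r = 0.97), Hopx (0.97) and Atg14 (0.96), and for Bhlhe22 they were Slc38a1 (0.90), Afap1l2 (0.90) and Ccdc8 (0.86). For Tcf3 they were Dmwd, Tysnd1 and Ano8 (0.99 or more), for Tcf4 Necab1, Nras and Tmem263 (0.98 to 0.99) and for Tcf12 Pkd2l2, Ccdc39 and Nsmaf (0.96 to 0.98). The genes closest to Tcf3 had a GC content of 56.5% to 65.2% and those closest to Tcf4 of 39.5% to 42.6%, near that of the member itself. Without wild-type replicate 1, the values for the same genes stayed high for every member. They were 0.91, 0.91 and 0.87 for Bhlhe22 and 0.92 to 0.95 for Neurog2. For Tcf3 they were 0.97 to 0.98, for Tcf4 0.98 and for Tcf12 0.93 to 0.97.

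Other neurogenic bHLH factors, a list of 14 of which 8 were in the table, were present in part. Olig1 and Olig2, bHLH factors of the oligodendrocyte lineage, averaged 1389 and 340 CPM per kb, both above Neurog2 at 2.96. Neurod1, Neurod4, Atoh7, Olig3 and Ptf1a averaged at most 0.0747 CPM per kb. Of the 7 tested, 0 were called by edgeR in any comparison and 0 had an unadjusted p under 0.05, with 3 higher and 4 lower in Kmt2a+/LSL against the wild type.

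All 9 bHLH inhibitors (Id1 to Id4, Hes1, Hes5, Hey1, Hey2 and Heyl) were in the table. Id3 and Hes5 had the highest levels, 75.8 and 64.8 CPM per kb. Of the 9, 0 were called and 0 had an unadjusted p under 0.05 by edgeR in any comparison. In Kmt2a+/LSL against the wild type, 5 were higher and 4 lower (median 0.07, and -0.13 without wild-type replicate 1), with Id3 at 0.08 (SE 0.42) and Hes5 at -0.01 (SE 0.90). Hes5, a Notch target that is also among the progenitor markers, ranged in the wild type from 2.14 CPM in replicate 1 to 160 in replicate 2, the libraries in which Neurog2 was also lowest and highest. Its GC content of 62.14% puts Hes5, like Neurog2, in the quintile where replicate 1 deviated by a median of -1.52. The part of GC content in these values was not tested.

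Of 15 known targets of Neurog and Neurod factors, 14 were tested and 0 were called by edgeR in any comparison. Dll1, the Notch ligand that neurogenins induce, and Btg2, an antiproliferative gene, were the most abundant by CPM. In Kmt2a+/LSL against the wild type, 8 were higher and 6 lower (median 0.07, and -0.31 without wild-type replicate 1), with Dll1 at 0.09 (SE 0.40) and Btg2 at 0.23 (SE 0.27). Sstr2, a somatostatin receptor gene, was the 1 target with an unadjusted p under 0.05 (log2 fold change -1.15, SE 0.51, edgeR unadjusted p = 0.0442, adjusted p = 1), from 12 to 14 counts per library in Kmt2a+/LSL and 20 to 32 in the wild type. Without wild-type replicate 1, its fold change was -0.68. Between restored and Kmt2a+/LSL cells, 7 targets were higher and 7 lower (median 0.00), with Dll1 at -0.16 (SE 0.40).

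**Figure D5:**
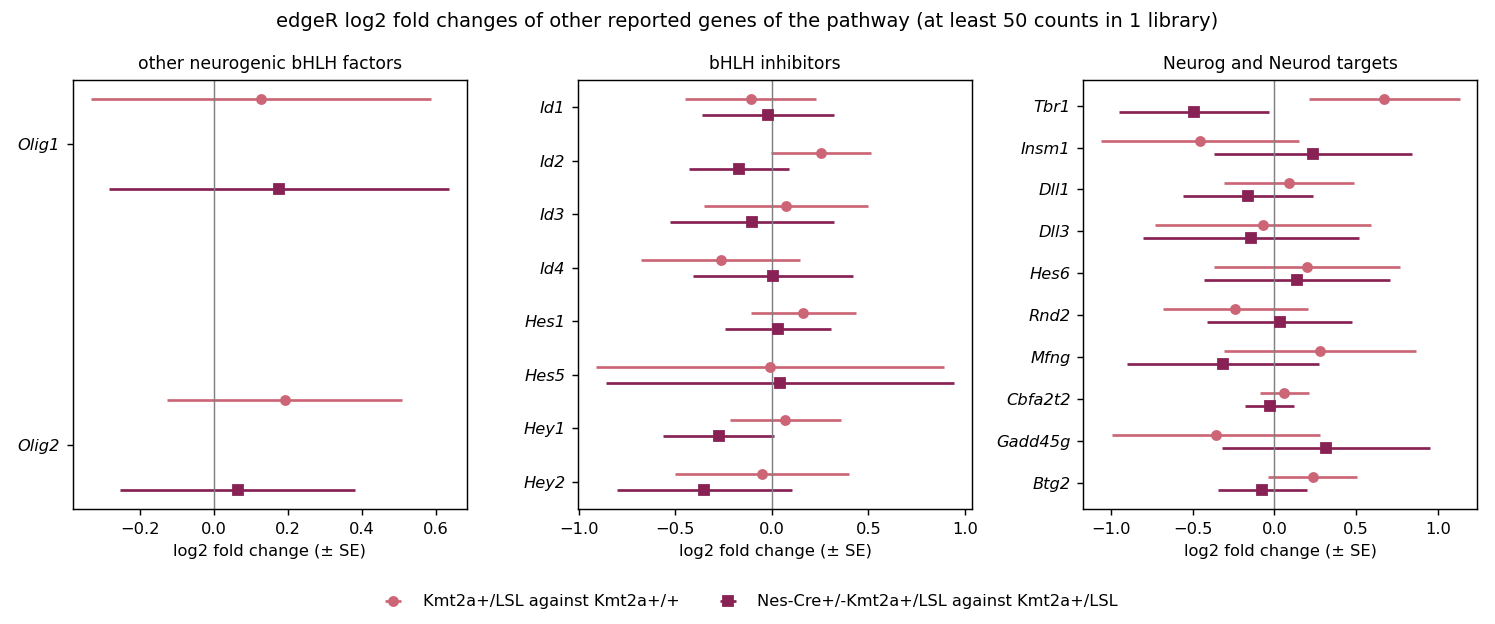
edgeR log2 fold changes (horizontal axis, ± SE) of other neurogenic bHLH factors, bHLH inhibitors and targets that are reported here and had at least 50 counts in a library, in Kmt2a+/LSL against the wild type (circles) and in the restored cells against Kmt2a+/LSL (squares). Id3 lies at 0.08 and -0.10, and none of the genes shown passed the test across all genes.

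Markers of other neural cells did not pass the test either. Astrocyte markers (6 genes) summed to 1180 to 4278 CPM per library in the wild type, 2240 to 3090 in Kmt2a+/LSL, 1820 to 3086 in the Cre controls and 1775 to 2726 in the restored cells, and oligodendrocyte lineage markers (6 genes) to 99.4 to 316, 220 to 358, 187 to 285 and 188 to 296 CPM in the same order. Neuron markers (10 genes) ranged from 1322 to 1575 CPM in Kmt2a+/LSL and from 1390 to 1757 in the restored cells, with Map2 at 0.14 (log2 fold change, SE 0.22) between them. Between restored and Kmt2a+/LSL cells, 5 of 6 oligodendrocyte lineage markers (median -0.69) and 5 of 6 astrocyte markers (median -0.35) were lower in the restored cells. The part of these cell types in the Bhlhe22 values was not tested.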

How the data were processed

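RNA-Seq of hippocampal mNPCs (12 libraries, 3 for each of 4 genotypes) was analysed. Reads had been pseudoaligned by the authors with kallisto 0.48.0 (mm10, GRCm38) and summed to genes through tximport and biomaRt. Each deposited value is an estimated count, a whole number without normalization; the planned count test was applied to it unchanged. A symbol was found for 18718 of the 18911 identifiers. The members and lists were chosen with earlier results of these data known.

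A gene was tested if its total exceeded 10 and at least 2 libraries had reads (17076 genes). After TMM scaling, edgeR 4.0.16 (R 4.3.3) fitted genotype as the only term to the 12 libraries with its quasi-likelihood F-test. Benjamini-Hochberg adjustment ran over all genes, and an adjusted p under 0.05 was called. CPM used TMM library sizes, and log2 CPM a prior count of 2. Single genes were also compared by two-sided exact permutation tests. The alternatives were DESeq2 1.42.0, its size factors, limma-voom 3.58.1 with quality weights, other filters, a replicate block, smaller sets of samples and the removal of each library. An offset for GC content (loess, span 0.5) was added after seeing the data. The text names all 8 members, Kmt2a, the 3 genes most correlated with each member, and from each list the genes with an unadjusted p under 0.05 and the 2 with the highest mean CPM. Scripts were tested on simulated data. Some genes of the lists are not reported here.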

Additional observations from a re-analysis of the deposited data

How the results depend on the processing

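No member was called under any alternative, with adjusted p between 0.551 and 1 for Bhlhe22 in Kmt2a+/LSL against Kmt2a+/+. Of the fold changes given, 166 kept their sign under other settings and 14 reversed, with no tolerance around 0; with a library left out, 242 kept it and 22 reversed. In Kmt2a+/LSL against Kmt2a+/+, Tcf3 was -0.075 with limma-voom and -0.15 with the GC offset, Tcf12 0.11 with limma-voom, and Neurog2 0.53 with the replicate block. Neurog2 was 0.23 with limma-voom in the restored cells against Kmt2a+/LSL. In the Cre controls against the wild type, Tcf3 was -0.062 with limma-voom and -0.21 with the GC offset, and Tcf12 0.084 and 0.015. Neurog2, at 0.0017 in that comparison, was -0.015 with DESeq2 size factors, -0.011 with DESeq2, -0.31 with limma-voom, -0.014 with only both genotypes fitted and -0.0081 with the GC offset. The cause was not tested.

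Genes called numbered 7 with DESeq2, 2 with limma-voom and 1 with the GC offset, both in Kmt2a+/LSL against wild type and in restored cells against Kmt2a+/LSL, where edgeR called 0. They numbered 3 with DESeq2 in the Cre controls against the wild type and 3 in the restored cells against the Cre controls, and 10 in the interaction. Against the mean of the other 3 genotypes they numbered 4 with DESeq2, 4 with limma-voom, 2 with the GC offset and 0 with the replicate block, against 1.

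With a library left out, log2 fold changes in Kmt2a+/LSL against the wild type ranged from -0.68 to 1.90 for Neurog2, -0.90 to -0.44 for Bhlhe22, -0.23 to 0.65 for Tcf3, -0.11 to 0.41 for Tcf4 and -0.13 to 0.14 for Tcf12, and genes called from 0 to 2 (2 without wild-type replicate 1). In the restored cells against Kmt2a+/LSL they ranged from -0.82 to 0.32 for Neurog2, 0.59 to 0.98 for Bhlhe22 and -0.20 to 0.086 for Tcf12, with 0 to 1 genes called (1 without wild-type replicate 1). In the Cre controls against the wild type they ranged from -0.54 to 2.05 for Neurog2, -0.22 to 0.67 for Tcf3, -0.12 to 0.40 for Tcf4 and -0.13 to 0.13 for Tcf12. In the restored cells against the Cre controls they ranged from -0.97 to 0.27 for Neurog2, -0.30 to 0.024 for Bhlhe22 and -0.19 to 0.09 for Tcf12. Against the mean of the other 3 genotypes, 2 genes were called without wild-type replicate 1, 1 without replicate 3 and 0 without any one of the other 10 libraries. Bhlhe22 ranged from -0.99 to -0.66 there and from 0.32 to 0.79 in the interaction.

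By the longest transcript, the shares were 26.0%, 26.2% and 23.4% for Tcf3 and 40.8%, 40.7% and 44.6% for Tcf4 in Kmt2a+/LSL, Cre controls and restored cells, and 33.2% for Tcf12 in both of the first pair. Neither the labels nor the data settle whether replicate numbers pair the libraries: deviations of 18 same-numbered pairs correlated at -0.14 to 0.59 (mean 0.137, 8 over 0.1) and those of 36 differently numbered pairs at -0.58 to 0.45 (mean -0.065, 9 over 0.1). All 3 pairs of wild-type with restored libraries were over 0.1 (0.59, 0.45 and 0.27), but in none of the 4 comparisons of single genotypes were all 3. With the replicate block, Bhlhe22 was at -0.68 in Kmt2a+/LSL against the wild type and 0.77 in the restored cells. Depth limits Neurog1, Neurod2 and Neurod6, for which no fold change is given.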
